A study of Mus musculus with 12 samples.

Results

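The genes described here encode the nuclear subunits of respiratory complexes II, III, IV and V, with cytochrome c, and their mRNA was measured in mouse quadriceps with 1-colour Agilent arrays. They were taken as every gene probe whose name in the scanner files began as a subunit name of these complexes does (Sdha to Sdhd, Uqcr, Ucrc, Cyc1, Cycs, Cox4 to Cox8, Atp5). This gave 68 of 41174 gene probes, carrying 50 gene names. A gene was kept where a probe stood clear of background on 6 arrays or more, which held for 47 of the 50, and these were tested among 16455 genes. Cox4i2, the lung isoform of cytochrome oxidase subunit 4, was well above background on 1 array, and Cox7b2 and Cox8c, both known as testis isoforms, on 0, so these 3 genes have no value. Of the 47, 4 belong to complex II, 10 to complex III with cytochrome c, 14 to complex IV and 15 to complex V. The other 4 share the names but were not counted as subunits. They are Cox7a2l (a supercomplex assembly factor), Atp5s (now Dmac2l), Atp5sl (now Dmac2, an assembly factor of complex I) and Cox4nb. Cox4nb (now Emc8), a neighbour of Cox4i1, belongs to a complex of the endoplasmic reticulum.

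All animals were male C57BL/6J mice aged 13 weeks. The exercised group of 6 had trained regularly on a motorised treadmill for 4 weeks, and their muscle was collected 3 hours after the final bout. The sedentary group of 6 did not train. The labels name no transgene and no drug for either group. Each array held RNA from 1 animal, and the arrays lay on 3 slides. Slide 1 held 1 exercised and 3 sedentary arrays, slide 2 held 3 exercised and 1 sedentary, and slide 3 held 2 of each group. The titles also place the animals in a set 1 and a set 2 whose meaning is not stated. Arrays are named here by set and animal number, so that s2m4 is animal 4 of set 2. A number shared between the groups does not mark the same animal.

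Electrons enter the respiratory chain of the inner mitochondrial membrane through complex I or through complex II, succinate dehydrogenase, which is also an enzyme of the tricarboxylic acid cycle. Complex III passes them to cytochrome c, and complex IV, cytochrome c oxidase, hands them to oxygen. Complexes III and IV pump protons on the way, and complex V, the ATP synthase, uses the return of the protons to make ATP. Every complex except II also holds subunits encoded in mitochondrial DNA, so its assembly draws on both genomes. Endurance training is known to raise the content of these enzymes in skeletal muscle over weeks.

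Levels are log2 signal relative to the 75th percentile of the same array, so that a difference of 1 is a doubling. Probes well above background numbered 21707 to 25229 per array and did not separate the groups (two-sided exact permutation test of the means, p = 0.814). No spot was saturated. Array pairs correlated at 0.978 to 0.993 over all genes. The muscle fibre markers Acta1, Ckm, Myh1, Myh2, Myh4, Tnnt3, Tnni2, Actn3, Mylpf and Pvalb were measured on all 12 arrays, 10 of 10, with 0 past the threshold. Only 2 of the 10 lay above 0 after training, with a median log2 difference of -0.13. Over all genes 42.1% lay above 0 and the median was -0.03. In whole muscle, fewer cells of a type and less RNA per cell cannot be told apart.

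No gene of complexes II to V passed the test between exercised and sedentary muscle. The fit (limma's moderated test, Benjamini-Hochberg adjusted p below 0.05 over all genes) called 3.67% of the 16455 genes, 1.82% higher and 1.85% lower after training, and 0 of the 47 genes in either direction. At an unadjusted p below 0.05, 16.2% of all genes passed and again 0 of the 47. The smallest adjusted p among the 47 was 0.384, for Sdhc. With slide as a block the fit called 2.13% of all genes and 0 of the 47, with a smallest adjusted p of 0.336, for Atp5g1; its calls were 1.17% higher and 0.954% lower. At an unadjusted p below 0.05 it took 14.4% of all genes and 1 of the 47, again Atp5g1.

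The differences were small as well as not called. They ran from a log2 of -0.16 for Atp5b to 0.29 for Cox6a1, with 26 genes above 0 and 21 below, and had a median of 0.01 beside -0.03 over all genes, of which 42.1% lay above 0. Without exercised s1m5, 15 of the 47 lay above 0 and the median was -0.02, and with slide as a block 37 did and it was 0.05. For 45 of the 47 genes the 95% interval of the fold lay within 1.5-fold either way, as it did for 76.1% of all genes. The exceptions were Cox6a1 (0.895 to 1.66-fold) and Cox7c (0.746 to 1.56-fold). The median standard error of the log2 difference was 0.086 for the 47 genes and 0.107 for all genes. Of the 47, 40 were among the 1646 brightest genes. The comparisons of interval and standard error are therefore not between genes of like level. Groups that do not overlap were found for 3.02% of all genes and for 0 of the 47.

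**Figure D1:**
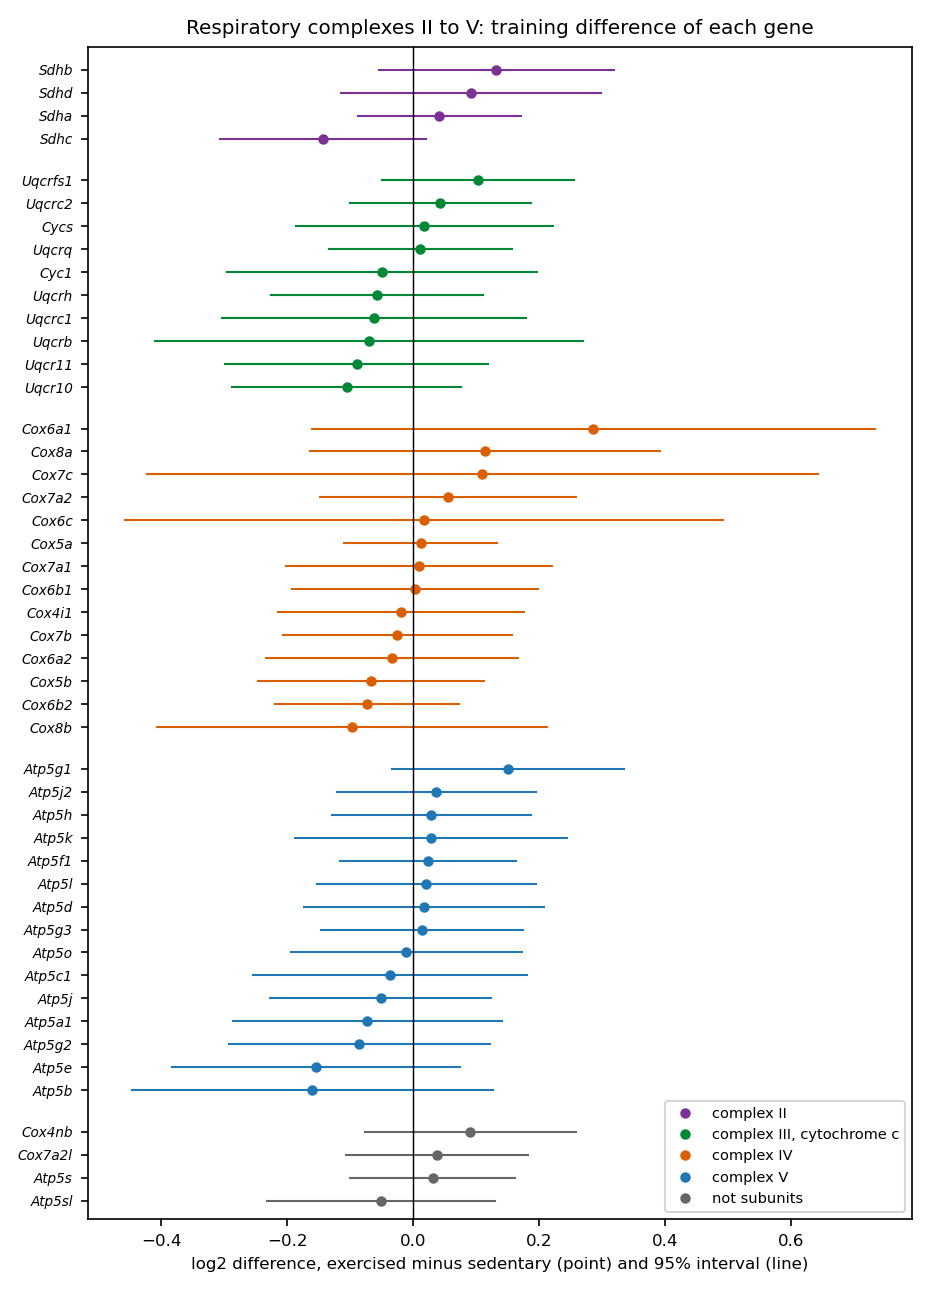
Log2 difference between exercised (n = 6) and sedentary (n = 6) muscle for each of the 47 measured genes, grouped by complex, with points for the estimate and lines for the 95% interval of limma's fit. Every line crosses 0, and the 2 longest intervals belong to Cox7c and Cox6c.

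In complex II, 3 of 4 genes lay above 0, with a median log2 difference of 0.07, and of 0.09 with slide as a block, where again 3 lay above 0. Sdha, the flavoprotein that oxidises succinate, had levels of 5.52 to 5.82 (median 5.72) in exercised and 5.61 to 5.72 (median 5.66) in sedentary mice. The exercised range enclosed the sedentary one, and the log2 difference was 0.04 ± 0.06 (SE, n = 6 and 6), which places the fold between 0.941 and 1.13. Its probe lies on chr13:74460146-74460205 of build mm9, and like the other probes here it is placed by the array annotation, which does not say whether it lies in an exon or a UTR. Sdhb, the iron-sulphur subunit, ranged from 6.86 to 7.29 in exercised and 6.82 to 7.13 in sedentary mice. Its log2 difference of 0.13 ± 0.09 did not pass (limma, adjusted p = 0.512).

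The 2 membrane anchors of succinate dehydrogenase differed in sign. Sdhc (chr1:173059657-173059716) read 5.62 to 5.84 in exercised and 5.65 to 6.03 in sedentary mice. Of the sedentary arrays, s1m1, s2m2, s2m4 and s2m5 lay above every exercised array, whereas s1m5 and s1m6 lay among them. The fold was 0.906 (95% interval 0.809 to 1.01; limma, adjusted p = 0.384, and 0.550 with the slide block). Sdhd read 6.13 to 6.70 and 6.18 to 6.49, with a log2 difference of 0.09 ± 0.10. Complex II is the one complex here that is wholly nuclear, so these 4 genes are all its subunits.

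In complex III and cytochrome c, 4 of 10 genes lay above 0 and 6 below, with a median log2 difference of -0.05. With slide as a block the sign turned, to 7 of 10 above 0 and a median of 0.05. The core proteins differed by -0.06 ± 0.11 for Uqcrc1 and 0.04 ± 0.07 for Uqcrc2 (log2, SE). The catalytic subunits, which carry the redox centres encoded in the nucleus, differed by 0.10 ± 0.07 for the Rieske protein Uqcrfs1 and -0.05 ± 0.11 for cytochrome c1, Cyc1. Among the small subunits the lowest value was that of Uqcr10, at -0.11 ± 0.08, followed by Uqcr11 at -0.09 ± 0.10; with slide as a block these were -0.02 and 0.00. Cycs, the mobile carrier cytochrome c, read 7.20 to 7.53 (median 7.33) in exercised and 7.13 to 7.57 (median 7.33) in sedentary mice, and its fold was 1.01 (0.879 to 1.17). Its other probes gave the same sign, within 0.05 of one another. The groups overlapped almost wholly for Cycs.

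Complex IV held the genes with the widest spread. Of its 14 measured genes 8 lay above 0 and 6 below, with a median log2 difference of 0.01, whereas with slide as a block 12 lay above 0 and the median was 0.08. The subunits present in all tissues as 1 form differed by 0.01 ± 0.06 for Cox5a and -0.07 ± 0.08 for Cox5b, and the main isoform of subunit 4, Cox4i1, by -0.02 ± 0.09. Cox7c (chr13:86184486-86185363), a small structural subunit, had the largest residual SD among the 47, at 0.468 on the log2 scale, against a median of 0.143. It read 3.61 to 4.17 in exercised mice, whereas in sedentary mice s1m1 read 2.99, s2m4 was within 0.01 of it, and the other 4 arrays read 3.89 to 4.41. Both low arrays lay on slide 3. Cox6c followed with a residual SD of 0.415, and there too s1m1 and s2m4 were the lowest sedentary arrays, at 7.17 and 7.26. The exercised array s2m4 was lower still for Cox6c, at 7.02, and was the lowest exercised array for Cox7c, at 3.61.

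Cytochrome c oxidase has heart and muscle isoforms of subunits 6a, 7a and 8 beside ubiquitous ones. The muscle isoforms differed by -0.03 ± 0.09 for Cox6a2, 0.01 ± 0.10 for Cox7a1 and -0.10 ± 0.14 for Cox8b (log2, SE, n = 6 and 6). The ubiquitous ones differed by 0.29 ± 0.21 for Cox6a1, 0.06 ± 0.09 for Cox7a2 and 0.11 ± 0.13 for Cox8a. With slide as a block the muscle isoforms were at 0.04, 0.08 and 0.08, in the same order. The ubiquitous ones were then at 0.32, -0.01 and 0.12. Cox6a1 (chr5:115795726-115795785) thus had the largest difference of the 47 genes, but it read 6.17 to 7.14 in exercised and 6.02 to 6.89 in sedentary mice, and the adjusted p was 0.560. The ratio of muscle to ubiquitous isoform, compared after these values had been seen, differed by a log2 of -0.32 for subunit 6a (95% interval -0.75 to 0.11), -0.05 for subunit 7a (-0.37 to 0.28) and -0.21 for subunit 8 (-0.63 to 0.21). None passed a two-sided exact permutation test over the 924 assignments of arrays (p = 0.115, 0.742 and 0.271, or 0.344, 0.742 and 0.406 after Benjamini-Hochberg adjustment over the 3). The ratios and their test took no account of slide. Cox6b1, the ubiquitous isoform of subunit 6b, differed by 0.00 ± 0.09, and its testis isoform Cox6b2 by -0.07 ± 0.07.

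Cox7a1 and Cox8b are also abundant in brown fat, and the markers of that cell type varied between arrays. The brown adipocyte list had 6 of its 8 genes outside the complexes measured, and its array score (the mean log2 deviation of its genes) ran from -0.74 to 1.40 in exercised and -1.21 to 0.43 in sedentary mice. Without Ppargc1a, which muscle also expresses, the score ran from -0.97 to 1.58 and from -1.32 to 0.71. Elovl3 was above background on 0 arrays, Otop1 on 3 and Ucp1 on 7. The SD of Ucp1 was 3.52 in exercised and 2.61 in sedentary mice, so it weighs most in the score. Ucp1 differed by a log2 of 4.35 and Cidea by 1.79, whereas Dio2, Zic1 and Cpt1b differed by 0.18, -0.17 and -0.03. The 95% interval was 0.88 to 7.82 for Ucp1 and 0.14 to 3.45 for Cidea. Neither passed (limma, adjusted p = 0.180 and 0.258, or 0.254 and 0.348 with the slide block). The part of these markers in the values of Cox7a1 and Cox8b was not tested.

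In complex V, 8 of 15 genes lay above 0 and 7 below, with a median log2 difference of 0.01, whereas with slide as a block 13 lay above 0 and the median was 0.03. The F1 part holds the catalytic sites. Its beta subunit gene, Atp5b (chr10:127527255-127527314), read 8.78 to 9.43 in exercised and 8.88 to 9.63 in sedentary mice. The log2 difference was -0.16 ± 0.13, the lowest of the 47 genes in the fit without a block, and its other probes gave 0.06 and 0.08. With slide as a block it was -0.01, and Sdhc was then the lowest at -0.11. The alpha subunit gene Atp5a1 differed by -0.07 ± 0.10, the gamma subunit gene Atp5c1, whose product is the rotor shaft, by -0.04 ± 0.10, and the epsilon subunit gene Atp5e by -0.15 ± 0.11. No gene of the F1 part passed the test.

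The c ring of complex V, through which the protons pass, is encoded by 3 genes for 1 mature protein. Atp5g1 (chr11:95934924-95934983) read 7.86 to 8.30 (median 7.99) in exercised and 7.79 to 8.04 (median 7.87) in sedentary mice. Exercised s1m1 and s1m5 lay above all sedentary arrays, and the other 4 lay within the sedentary range. The fold was 1.11 (95% interval 0.977 to 1.26; limma, adjusted p = 0.426, and 0.336 with the slide block). Atp5g2 differed by -0.09 ± 0.10 and Atp5g3 by 0.01 ± 0.07, and with slide as a block all 3 lay above 0, at 0.17, 0.01 and 0.05. Peripheral stalk and membrane subunits other than the c ring (Atp5f1, Atp5h, Atp5j, Atp5j2, Atp5k, Atp5l, Atp5o) lay between -0.05 and 0.04. The probe of Atp5k is annotated to chromosome Y (chrY:1599764-1599823) and was used under the name in the file.

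The 4 genes not counted as subunits lay between -0.05 for Atp5sl and 0.09 for Cox4nb. Where a gene had more than 1 measured probe, the probes did not always give 1 sign: of 15 such genes, 9 did. The largest gap between probes of a gene was 0.24, for Atp5b and for Uqcrq. Among 65 member probes tested singly, 0 passed, against 3.32% of all 22916 probes, and the smallest adjusted p was 0.201. An unadjusted p below 0.05 took 15.7% of all probes and 3 of the 65, single probes of Atp5f1 (log2 0.20), Sdha (0.22) and Atp5g2 (-0.15). None of the 3 was its gene's brightest probe.

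Although no gene passed between the groups, the genes deviated together from array to array. On exercised s2m4, 45 of the 47 genes lay below their own mean over the 12 arrays, and on exercised s2m3 36 did. On exercised s1m5, 42 lay above and on s1m1 38. Over all genes the share below the mean was 56.5% on s2m4 and 57.7% on s2m3, and 47.4% and 47.3% on s1m5 and s1m1. Among sedentary arrays the count below ran from 11 of 47 on s2m5 to 38 on s1m5, where 58.3% of all genes lay below.

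**Figure D2:**
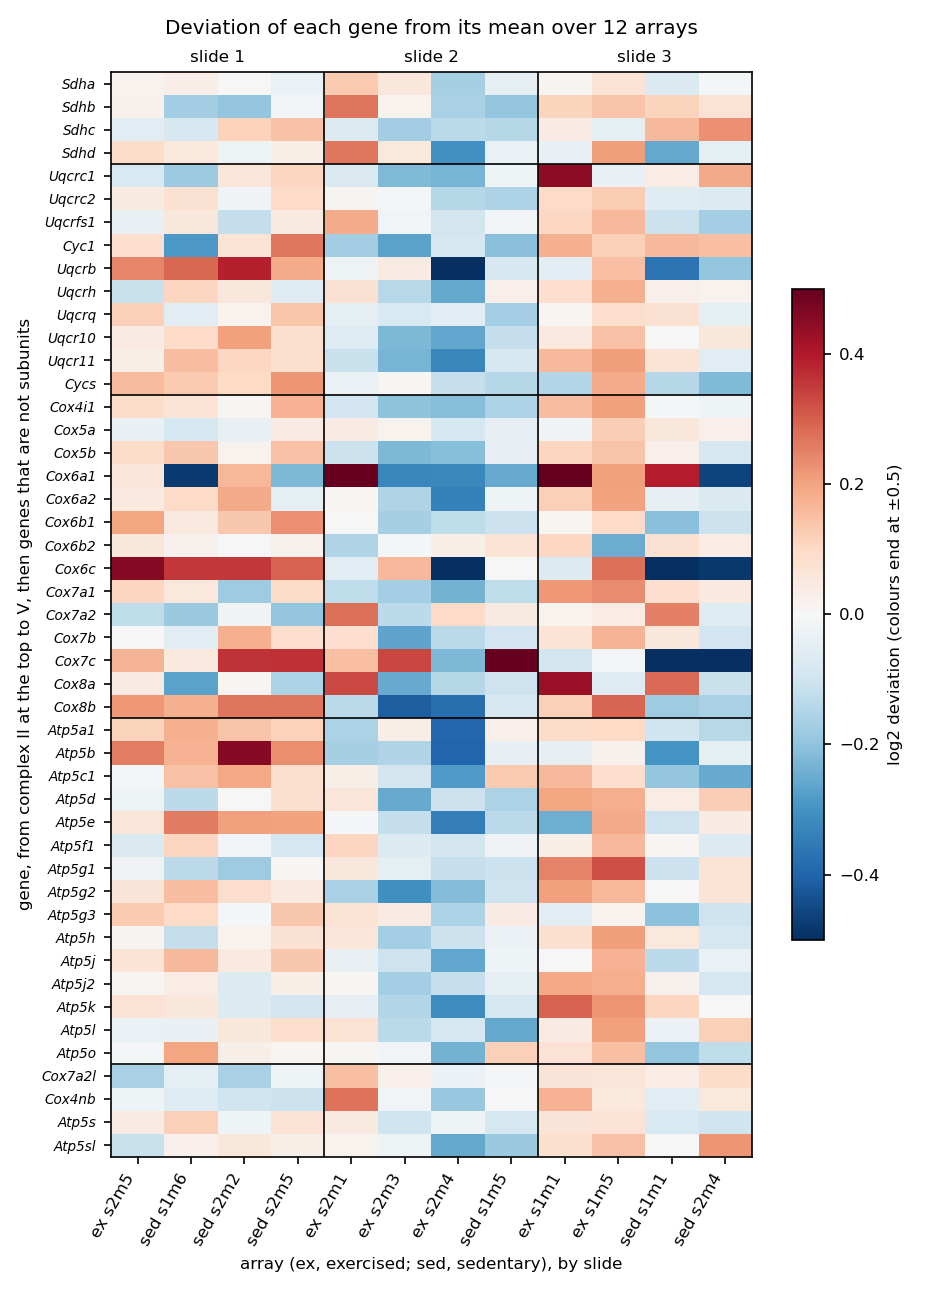
Log2 deviation of each of the 47 genes (rows, by complex) from its own mean over the 12 arrays (columns, by slide, exercised before sedentary within a slide); red is above the mean and blue below. The column of exercised s2m4 is blue for 45 of 47 genes and that of exercised s1m5 red for 42, across all complexes, whereas Cox7c, Cox6c and Cox6a1 have the strongest colours by row.

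The score of the 47 genes, their mean deviation on an array, was 0.10, 0.13, 0.03, -0.10, -0.20 and 0.05 on exercised s1m1, s1m5, s2m1, s2m3, s2m4 and s2m5. On sedentary s1m1, s1m5, s1m6, s2m2, s2m4 and s2m5 it was -0.05, -0.06, 0.03, 0.06, -0.06 and 0.07. The exercised scores therefore spread on both sides of the sedentary ones, with an SD of 0.128 against 0.061. On exercised s2m4 the score was -0.19 for complex II, -0.21 for complex III and cytochrome c, -0.21 for complex IV and -0.21 for complex V. The 37 measured genes named Ndufa, Ndufb, Ndufc, Ndufs or Ndufv with a number, called complex I here, are no members. They moved likewise, at -0.17 on exercised s2m4 and 0.16 on exercised s1m5.

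Other measures differed on some of these arrays. Exercised s2m4 had 217 spots with outlier marks, against 42 to 116 on the others, and its score for the 10 fibre markers was -0.24, the lowest of the 12. On exercised s1m1 and s1m5, the fibre score was 0.10 and 0.04. Exercised s2m3, with a respiratory score of -0.10, had 74 spots with outlier marks and a fibre score of -0.09. Exercised s2m1 had a lower fibre score, -0.11, beside a respiratory score of 0.03. The part of array quality in the deviations was not tested. Without exercised s2m4 the fit called 0 of the 47 genes, 31 lay above 0 and their median was 0.04.

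Within slides the difference was not uniform. The median log2 difference of the 47 genes was -0.01 on slide 1, -0.02 on slide 2 and 0.15 on slide 3, with 20, 22 and 42 genes above 0. Over all genes the share above 0 was 42.4%, 49.2% and 49.3%, and the medians -0.04, 0.00 and 0.00. On slide 3, the one slide with 2 arrays of each group, complex III and cytochrome c stood at 0.14, complex IV at 0.18 and complex V at 0.16, whereas complex II stood at 0.06. Complex I stood at 0.18 on that slide. Slow-fibre markers turned on the same slide, with medians of 0.90, 0.83 and -0.80 on slides 1, 2 and 3, and the 10 fibre markers stood at -0.13, -0.17 and 0.08; their part in the respiratory values was not tested. Without exercised s2m1, slide 2 had 11 of the 47 genes above 0 and a median of -0.09. Within each slide 0 of the 47 genes passed, where limma called 0%, 0.0486% and 0% of all genes.

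A training effect that differs between slides was tested as an interaction. Over all 16360 genes with complete values, 0.0611% passed at an adjusted p below 0.05 and 0 of the 47 did. At an unadjusted p below 0.05 it was 5.02% of all genes and 3 of the 47: Cox7c, Atp5c1 and Cox8b. The smallest adjusted p of the 47 was 0.646, in limma's moderated F-test. For Cox7c the log2 difference was -0.09, -0.49 and 0.79 on slides 1, 2 and 3, for Atp5c1 -0.15, -0.25 and 0.35, and for Cox8b -0.02, -0.23 and 0.38. With slide as a block the median of the 47 genes was 0.05 and 37 lay above 0, beside a median of -0.02 over all genes.

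The sets of the titles split the genes further. In set 1 (2 exercised, 3 sedentary) the median log2 difference of the 47 genes was 0.14 and 44 lay above 0; in set 2 (4 exercised, 3 sedentary) it was -0.09 and 14 lay above 0. The medians over all genes were 0.01 and -0.05. For complex III and cytochrome c, 10 of 10 genes lay above 0 in set 1 and 1 of 10 in set 2. Uqcrc1 differed by 0.26 and -0.27 in the sets, Cyc1 by 0.26 and -0.27, and Atp5g1 by 0.40 and 0.01. The set 1 value of Uqcrc1 rests on exercised s1m1, which read 8.62. Exercised s1m5, at 8.14, lay within the 7.99 to 8.21 of the sedentary arrays of set 1. Complex II was at 0.12 and 0.03.

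The test of a training effect that differs between sets called 0% of all genes and 0 of the 47 at an adjusted p below 0.05. At an unadjusted p below 0.05 it took 8.76% of all genes and 9 of the 47: Atp5g1, Atp5d, Uqcrc1, Cyc1, Atp5l, Atp5g2, Atp5sl, Cox4i1 and Uqcr10, with a smallest adjusted p of 0.540 in limma. Since the 47 genes deviate together on single arrays, they are not separate observations of the sets. Leaving out each array in turn, the set 1 median stayed between 0.10 and 0.17. The set 2 count went from 14 to 5 above 0 without exercised s2m1 and to 19 without exercised s2m4. The set 2 median stayed between -0.12 and -0.04 and went from -0.09 to -0.04 without exercised s2m4 and to -0.04 without sedentary s2m5. Both exercised arrays of set 1 lay on slide 3 and 3 of the 4 of set 2 on slide 2, so among exercised arrays set 1 and slide 3 cannot be told apart.

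**Figure D3:**
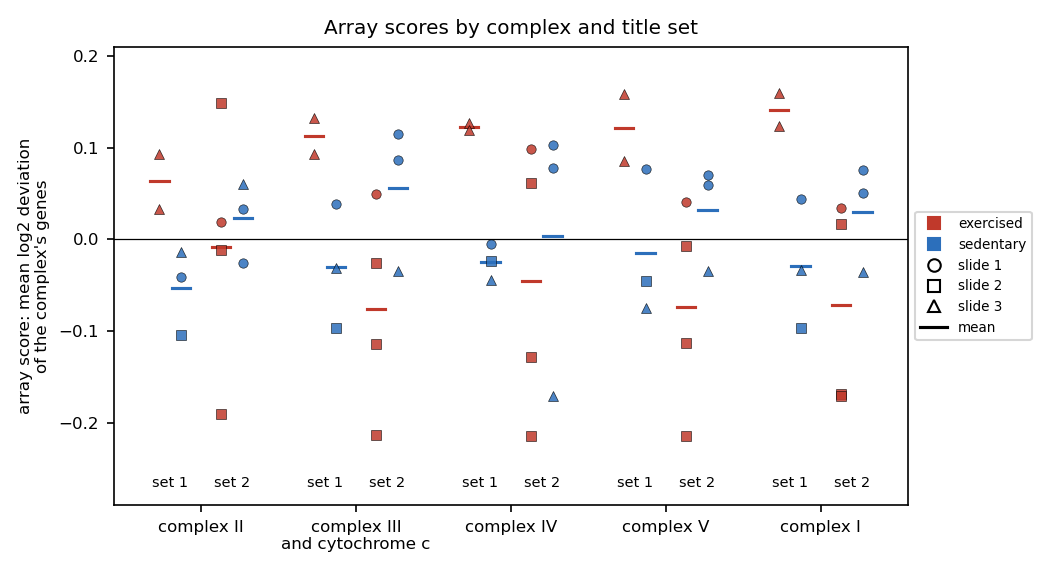
Array scores (mean log2 deviation of a complex's genes from their means over the 12 arrays) for each complex, split by title set; red is exercised, blue sedentary, the marker gives the slide and the short lines are means, with complex I for comparison. In set 1 both exercised arrays have scores above 0 in every complex, whereas in set 2 exercised s2m4 and s2m3 are the lowest arrays in complexes III and V and sedentary s2m4 lies between them in complex IV.

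**Figure D4:**
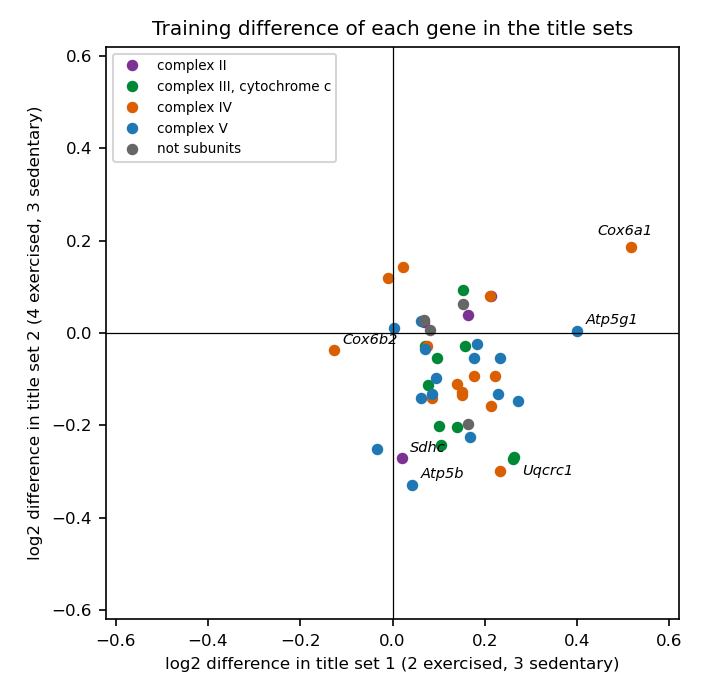
Log2 difference of each of the 47 genes in title set 1 (horizontal) and title set 2 (vertical), coloured by complex. Of the 47 points 44 lie right of 0 and 14 above 0, and the sets share no arrays.

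Upstream of these genes, 2 of 21 measured regulators rose and 0 fell. Ppargc1a, the coactivator PGC-1alpha that drives mitochondrial gene expression, read 3.14 to 4.37 in exercised and 1.40 to 2.02 in sedentary mice, and the groups lay apart. It was 3.68-fold higher (95% interval 2.70 to 5.04; limma, adjusted p = 0.000389; with the slide block 0.000671). Ppara, a nuclear receptor of fatty acid metabolism, read 0.62 to 1.39 and -0.78 to 0.17 and was 2.24-fold higher (1.75 to 2.87; adjusted p = 0.00212, and 0.0142 with the block). The receptor Esrra (0.07) and the factors Nrf1 (0.03) and Gabpa (-0.05), which are known to bind promoters of respiratory genes did not pass, as log2 differences. Tfam, which serves mitochondrial DNA, had a log2 difference of 0.13 (95% interval -0.79 to 1.05), but it was below 0 within every slide, at -0.17, -0.49 and -0.59 on slides 1, 2 and 3. For Ppargc1b, the related coactivator, the log2 difference was -0.31 (limma, adjusted p = 0.193). The median over the regulators was 0.03.

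**Figure D5:**
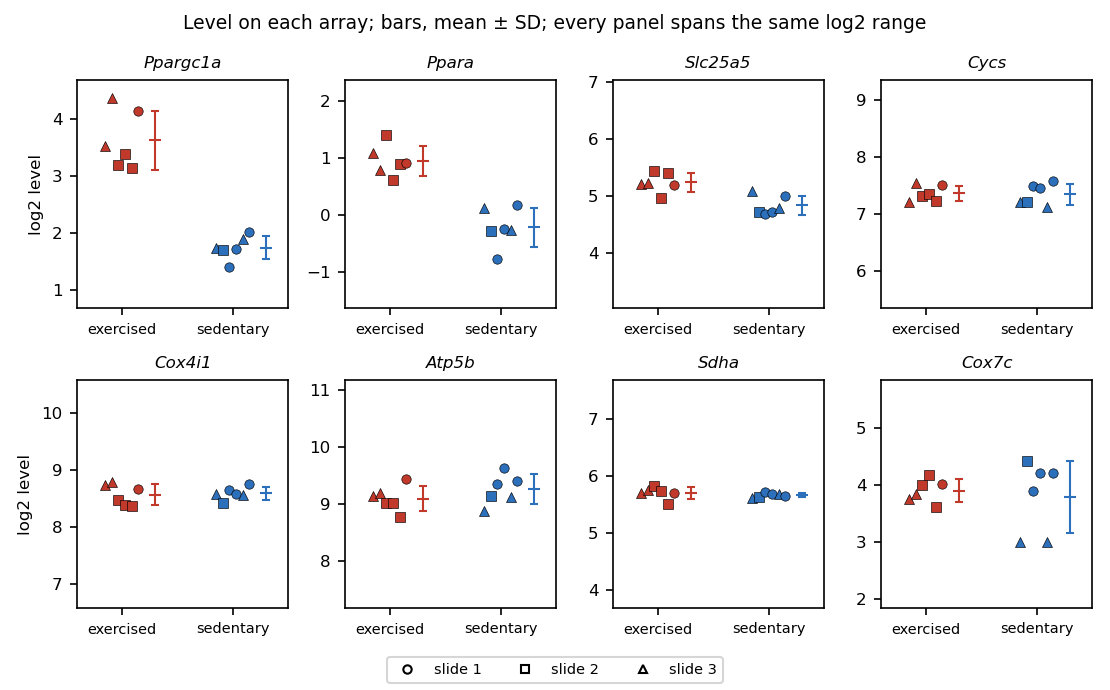
Log2 level on each of the 12 arrays for Ppargc1a, Ppara and Slc25a5, which passed the test, and for 5 genes of complexes II to V, which did not; marker shape gives the slide, bars give mean ± SD (n = 6), and each panel spans the same width on its log2 axis. The groups lie apart for Ppargc1a and Ppara and overlap for Cycs, Cox4i1, Atp5b, Sdha and Cox7c.

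Of the 9 genes for ATP export and phosphate, 1 rose. Slc25a5, an adenine nucleotide translocator, read 4.97 to 5.45 in exercised and 4.69 to 5.09 in sedentary mice and was 1.32-fold higher (1.14 to 1.53; limma, adjusted p = 0.0409; with the slide block 0.122). For the muscle translocator Slc25a4 the log2 difference was -0.17 (limma, adjusted p = 0.282). Complex I had 0 of 37 genes called, with 18 above 0 and a median of 0.00. Assembly factors of complexes II to V had 0 of 35 called and a median of 0.00.

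Partner subunits encoded in mitochondrial DNA were measured for 4 of 13 genes, and 0 passed. All 4 lay below 0: mt-Cytb of complex III (log2 -0.21), mt-Co2 of complex IV (-0.16), mt-Atp6 of complex V (-0.14) and mt-Nd4 of complex I (-0.08). The exercised and sedentary arrays overlapped for each, for instance 8.42 to 8.78 against 8.54 to 9.01 for mt-Cytb. The smallest adjusted p of the 4 was 0.288 in limma, for mt-Cytb, and 0.474 with slide as a block, for mt-Co2. On slide 3 mt-Cytb lay above 0, at 0.04. Over all genes 42.1% lay above 0 in the fit without a block. The array annotation places the probes of mt-Atp6 and mt-Co2 on chromosome 1, where copies of mitochondrial sequence lie, and the others on the mitochondrial genome.

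The promoters of the members were searched for the motifs of 4 factors known for respiratory genes, among them partners of the coactivator encoded by Ppargc1a. RefSeq windows of 300 bases (250 before and 50 after the start, build GRCm38.p6) were given for 38 of the 50 genes and 27025 symbols in all. On both strands, the NRF-1 motif GCGCNNGCGC occurred in 10 of 38 (26.3%) against 7% of all promoters, the GABP motif CCGGAAG in 12 (31.6%) against 9.93%, the ERR motif AAGGTCA in 5 (13.2%) against 5.38% and the YY1 motif AAGATGGC in 4 of 38 against 3.19%. The last letters of the GABP motif, AAG, are the first of the ERR and YY1 motifs, so matches of these can share bases. By complex, the NRF-1 motif was found in 6 of 14 windows of complex V and 1 of 12 of complex IV. A match is a run of letters and not a bound site. The 27025 symbols were not chosen by level, whereas 40 of the 47 measured members were among the brightest genes. These shares are therefore not between promoters of like genes, and base composition was not matched.

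Sdhd and Atp5k held 3 of the 4 motifs, as did 0.155% of all promoters, and 17 of 38 windows held none against 77.5%. The log2 differences of Sdhd and Atp5k, 0.09 and 0.03, lay within the range of the rest. Gabpa, which encodes the DNA-binding subunit of GABP, is annotated within 250 bases before the start of Atp5j. For the muscle isoforms Cox7a1 and Cox8b no motif was found, whereas Cox6a1 held the NRF-1 motif in 2 places and the GABP motif. Cox6a1 is shown as the gene of largest difference, Cox7a1 and Cox8b as muscle isoforms and Atp5e as a gene of the F1 part. No other gene is annotated in these 250 bases before the start. They are printed 5′ to 3′ on the gene's strand, with NRF-1, GABP, ERR and YY1 motifs of either strand in capitals.
Cox6a1, chr5:115348959-115349208, minus strand: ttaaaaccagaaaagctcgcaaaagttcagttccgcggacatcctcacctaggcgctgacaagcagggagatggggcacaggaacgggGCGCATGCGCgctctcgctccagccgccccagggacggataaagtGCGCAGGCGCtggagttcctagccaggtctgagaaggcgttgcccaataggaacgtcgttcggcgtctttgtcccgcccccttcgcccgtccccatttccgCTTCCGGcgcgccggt
Atp5e, chr2:174464102-174464351, minus strand: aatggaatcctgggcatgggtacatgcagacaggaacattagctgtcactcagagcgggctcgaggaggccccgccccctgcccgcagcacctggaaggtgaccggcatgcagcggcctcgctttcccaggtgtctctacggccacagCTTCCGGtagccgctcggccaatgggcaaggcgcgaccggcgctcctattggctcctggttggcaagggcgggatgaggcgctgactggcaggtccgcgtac
Cox7a1, chr7:30183921-30184170, plus strand: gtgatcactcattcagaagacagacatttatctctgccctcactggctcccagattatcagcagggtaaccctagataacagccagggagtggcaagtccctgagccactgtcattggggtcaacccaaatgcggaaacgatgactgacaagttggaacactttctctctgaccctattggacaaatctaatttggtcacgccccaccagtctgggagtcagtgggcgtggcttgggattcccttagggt
Cox8b, chr7:140900447-140900696, minus strand: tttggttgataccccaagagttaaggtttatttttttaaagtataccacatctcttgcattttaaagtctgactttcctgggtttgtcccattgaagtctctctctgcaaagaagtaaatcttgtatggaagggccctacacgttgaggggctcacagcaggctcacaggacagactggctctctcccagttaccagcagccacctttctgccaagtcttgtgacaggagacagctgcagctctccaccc
In Cox6a1 the capitals begin 162, 117 and 16 bases before the start, and in Atp5e the GABP motif begins 102 bases before it; its ERR match lies in the bases after the start, which are not shown. The log2 differences of these genes were 0.29, -0.15, 0.01 and -0.10 in the order shown, and none passed the test.

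Markers of slow fibres and other cells varied between arrays. The slow-fibre score, from 8 of 8 measured genes, ran from -0.52 to 1.20 in exercised and from -1.17 to 0.68 in sedentary mice, and sedentary s1m6 and s2m2 were the lowest at -1.17 and -1.15. On these arrays the score of the 47 respiratory genes was 0.03 and 0.06. The white adipocyte score (8 of 8) ran from -0.77 to 0.98 and from -0.85 to 0.84, the tendon score (8 of 8, all with log2 differences above 0) from -0.37 to 1.12 and from -1.52 to 0.05, and the cardiac score (3 of 5, with Myl7 and Ryr2 not measured) from -0.28 to 0.84 and from -0.56 to 0.51. Of the marker genes outside the complexes only Ppargc1a, which is on the brown adipocyte list, passed the test. Their part in the respiratory values was not tested.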

How the data were processed

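Quadriceps RNA of 12 mice was hybridised singly, in Cy3. Per the file headers the authors extracted the deposited spot intensity with Agilent Feature Extraction 10.5.1.1 (the submitters' processing notes name 9.1). This processed intensity has had background and spatial trend removed on each array, without scaling across arrays. Other columns of the deposited files used, per the file headers, hold marks and names of spots (well above background, outlier, gene name, accession, position on mm9). Spots with outlier marks were left out, spots of a probe averaged, and each array's 75th percentile of log2 intensity subtracted. Of 41174 gene probes, 22916 were well above background on at least 6 arrays. A gene was represented by its probe of highest mean level (for members, among probes the name rule took), 16455 genes in all. Exercised and sedentary arrays were compared in limma 3.58.1 (R 4.3.3) with no covariate, Benjamini-Hochberg adjustment over all genes and a threshold of 0.05; 95% intervals are from the same fit. Array number limits the precision. Fits were checked on simulated data in which genes varied independently, with no array or slide effect. Interactions with slide and title set used moderated F-tests on the 16360 genes with complete values. Of 12 arrays, 4 pairs share a title number across groups. Their deviations correlated at -0.18 to 0.28, too few values to decide whether the numbers mark pairs. No label says that they do, and the numbers were not taken as pairs.

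The genes, lists and motifs were chosen with earlier results of these data known. Named genes were those past the threshold, the 3 with the smallest p in each complex, complex II, core and catalytic subunits, isoform families, the 3 with the smallest slide interaction p, the 3 of largest residual SD and the unmeasured ones, 33 in all; Atp5d, Atp5l, Uqcrb, Uqcrq and the rest were named after their values were seen. The mitochondrial genes carry older names in the files and were matched by their description, a choice made after the data were seen. Isoform ratios used exact permutation. Alternatives were slide as a block, single slides, other scaling, background correction, filters, probe choices, variance models, array weights, title set, shared numbers, a threshold of 0.10 and each array left out. Probe positions were not checked against a genome.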

Additional observations from a re-analysis of the deposited data

Results flagged for a closer look

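Of 106 groups of 6 arrays examined among the 47 genes and their sets, 3 had an array whose gap to the nearest other was a larger part of the group's range than Dixon's 95% critical value allows. Chance gives about 1 in 20. Sdhd, a membrane anchor of complex II, read 6.18 on sedentary s1m1, against 6.39 to 6.49 on the other sedentary arrays. Uqcrc1, a core protein of complex III, read 8.62 on exercised s1m1, against 7.94 to 8.14 on the other exercised arrays. Uqcrb, a small subunit of complex III, read 5.78 on exercised s2m4, against 6.30 to 6.60 on the others, and that array also had the lowest score of the 47 genes.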

How the results depend on the processing

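Under 32 alternatives 0 of the respiratory genes passed the threshold in either direction, and of 960 values of named genes 48 moved by more than the gene's residual SD and 0 passed. Some alternatives could not move a value: with no spot saturated, the settings on saturation repeated the main fit. The threshold of 0.10 and limma's trend and robust options left the log2 differences as they were. A filter asking for all 12 arrays kept the same 47 genes, with 26 above 0 and a median of 0.01. The number of all genes past the threshold was 604, and it moved to 350 with slide as a block, to 0, 8 and 0 within slides 1, 2 and 3 (limma; 1007, 964 and 2140 at an unadjusted p below 0.05), to 0 with normexp background correction (offset 50; 107 unadjusted), to 317 with no filter on dim probes and to 1011 at an adjusted p below 0.10. In the fit of shared numbers with a replicate block it was 29. The correlations of same-numbered arrays were 0.15, -0.18, 0.12 and 0.28. These few values cannot decide whether the numbers mark pairs, and the numbers were not taken as pairs. Leaving out each array in turn gave 418 to 571 genes. The interactions counted 822 genes for slide and 1433 for title set at an unadjusted p below 0.05. The median of the 47 genes stayed between -0.02 and 0.04 with each array left out. It was 0.15 within slide 3 (complex III 0.14, complex IV 0.18, complex V 0.16), and with normexp 0.26 (complexes II to V 0.41, 0.26, 0.27 and 0.29), where the median of all genes was 0.00 and 46 of 47 genes lay above 0; the cause was not tested. Medians have no test, and their sign changed with slides and single arrays. Cox4i2, Cox7b2 and Cox8c could not be judged, since none of their probes was well above background on 6 arrays.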
